A study of Mus musculus with 16 samples.

Results

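The 9 genes described here encode the pore-forming subunits of 2 families of ionotropic glutamate receptors, the AMPA receptors (Gria1, Gria2, Gria3 and Gria4) and the kainate receptors (Grik1, Grik2, Grik3, Grik4 and Grik5). They were taken by name, as the 2 complete subunit families around Grik2, and none was added or left out for its values. Earlier results of these data were known when the families were chosen. They are 9 of the 50600 genes in the count tables, 4 of them AMPA and 5 kainate receptor genes.

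As background, both receptor types are cation channels that open when glutamate binds, and each channel is an assembly of subunits of 1 family. The make-up of the assembly sets its conductance, its kinetics and its permeability to calcium, which in AMPA receptors is low when the edited Gria2 subunit is present. Besides carrying excitatory transmission in neurons, these receptors are found on neural progenitors, on oligodendrocyte precursors and on astrocytes, where they respond to glutamate released nearby.

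The study asked how stably clones of cells keep an allelic bias, and measured RNA by sequencing in hybrid mouse cells (129Sv x Cast/EiJ), in which reads over strain differences can be given to the maternal 129 or the paternal Cast allele. ES cells were grown for 7 days in N2B27 medium and for 3 days as aggregates with EGF and FGF2 (10 ng/mL of each), and single neural progenitor (NPC) colonies were picked after limiting dilution, so every library came from a line grown from 1 clone. Astrocytes were made from NPC clones with 10 ng/mL BMP4 and 1 ng/mL FGF2 for 48 h. There were 16 libraries of 12 clones: 5 astrocyte clones after poly(A) enrichment (129, C2 and G4, female; mC3 and mE6, male), 3 NPC clones after poly(A) enrichment (F5, female; mG2 and mG6, male), and, after ribosomal RNA depletion, 2 libraries from each of the male NPC clones Ch3, Ch5, Ch7 and Ch8. Sex here is also the ES cell line, clone 129 is a name and not an allele, and among these 16 libraries no clone occurs both as NPC and as astrocyte. The poly(A) libraries held 69925081 to 105892734 reads on genes, and the ribosomal RNA-depleted libraries 20871111 to 30920672. Levels (CPM) are reads of a gene over the reads on genes of its library, times 1000000, and an allelic ratio is the Cast share in percent of the allele-specific reads. Intervals after a ratio are by Wilson (95%) and hold the error of counting alone.

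Marker genes were checked against the labels before the receptor genes were read. In astrocytes against poly(A) NPC, all 4 listed proliferation genes were lower, led by Mki67 (log2 fold change -8.43 ± 0.59, SE). Of 9 NPC markers 3 were lower, among them Nes (-3.79 ± 0.28), and of 10 astrocyte markers 3 were higher and 1 lower: Gfap rose (8.45 ± 1.55), as did Aqp4 (5.37 ± 0.93) and Slc1a2 (3.52 ± 0.72), while Aldh1l1 fell (-1.55 ± 0.45). Gfap lay at 61.9 to 2092 CPM in the astrocyte libraries and at 0.680 to 2.25 CPM in the poly(A) NPC libraries, so these groups did not overlap. Fabp7, an NPC marker, was still at 90.03 to 818 CPM in the astrocyte libraries, against 854 to 2702 CPM in the poly(A) NPC libraries, and did not pass (-2.05 ± 0.74, edgeR adjusted p = 0.0743). In these cultures fewer cells of a type and less RNA per cell cannot be told apart.

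The receptor genes differed widely in level, which between genes was compared as CPM per kilobase of exon. In astrocytes the medians ran from Grik5 (22.9), Gria3 (18.7) and Gria4 (18.3) over Grik3 (3.93), Gria2 (3.36), Grik4 (0.761) and Grik2 (0.180) to Gria1 (0.0412) and Grik1 (0.0230). In poly(A) NPC the order began with Gria4 (46.7), Gria2 (28.4), Gria3 (25.9) and Grik5 (20.8) and went on with Grik3 (0.823), Gria1 (0.710), Grik4 (0.420), Grik2 (0.135) and Grik1 (0.0551). In the ribosomal RNA-depleted NPC libraries it was Grik5 (11.05), Gria3 (5.06), Gria2 (3.62), Grik3 (0.853), Grik2 (0.707), Gria1 (0.363), Gria4 (0.184), Grik4 (0.114) and Grik1 (0.0153). The ranges of neighbours in each order overlapped, with 3 exceptions. In poly(A) NPC, Gria3 (25.2 to 44.3) lay above Grik5 (14.2 to 22.7), and Grik5 above Grik3 (0.531 to 2.95). In the ribosomal RNA-depleted libraries Grik5 (10.1 to 14.0) lay above Gria3 (3.38 to 7.72). Of the summed kainate receptor level, Grik5 made up 71.1 to 97.3% in the 8 poly(A) libraries. Of the summed AMPA receptor level, Gria4 made up the largest share in clones 129 (55.6%), G4 (88.7%), mC3 (67.3%), mE6 (75.8%), mG2 (46.6%) and mG6 (37.2%), and Gria3 in C2 (48.2%) and F5 (86.3%). The plot of levels by library shows all 9 genes on 1 scale.

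**Figure D1:**
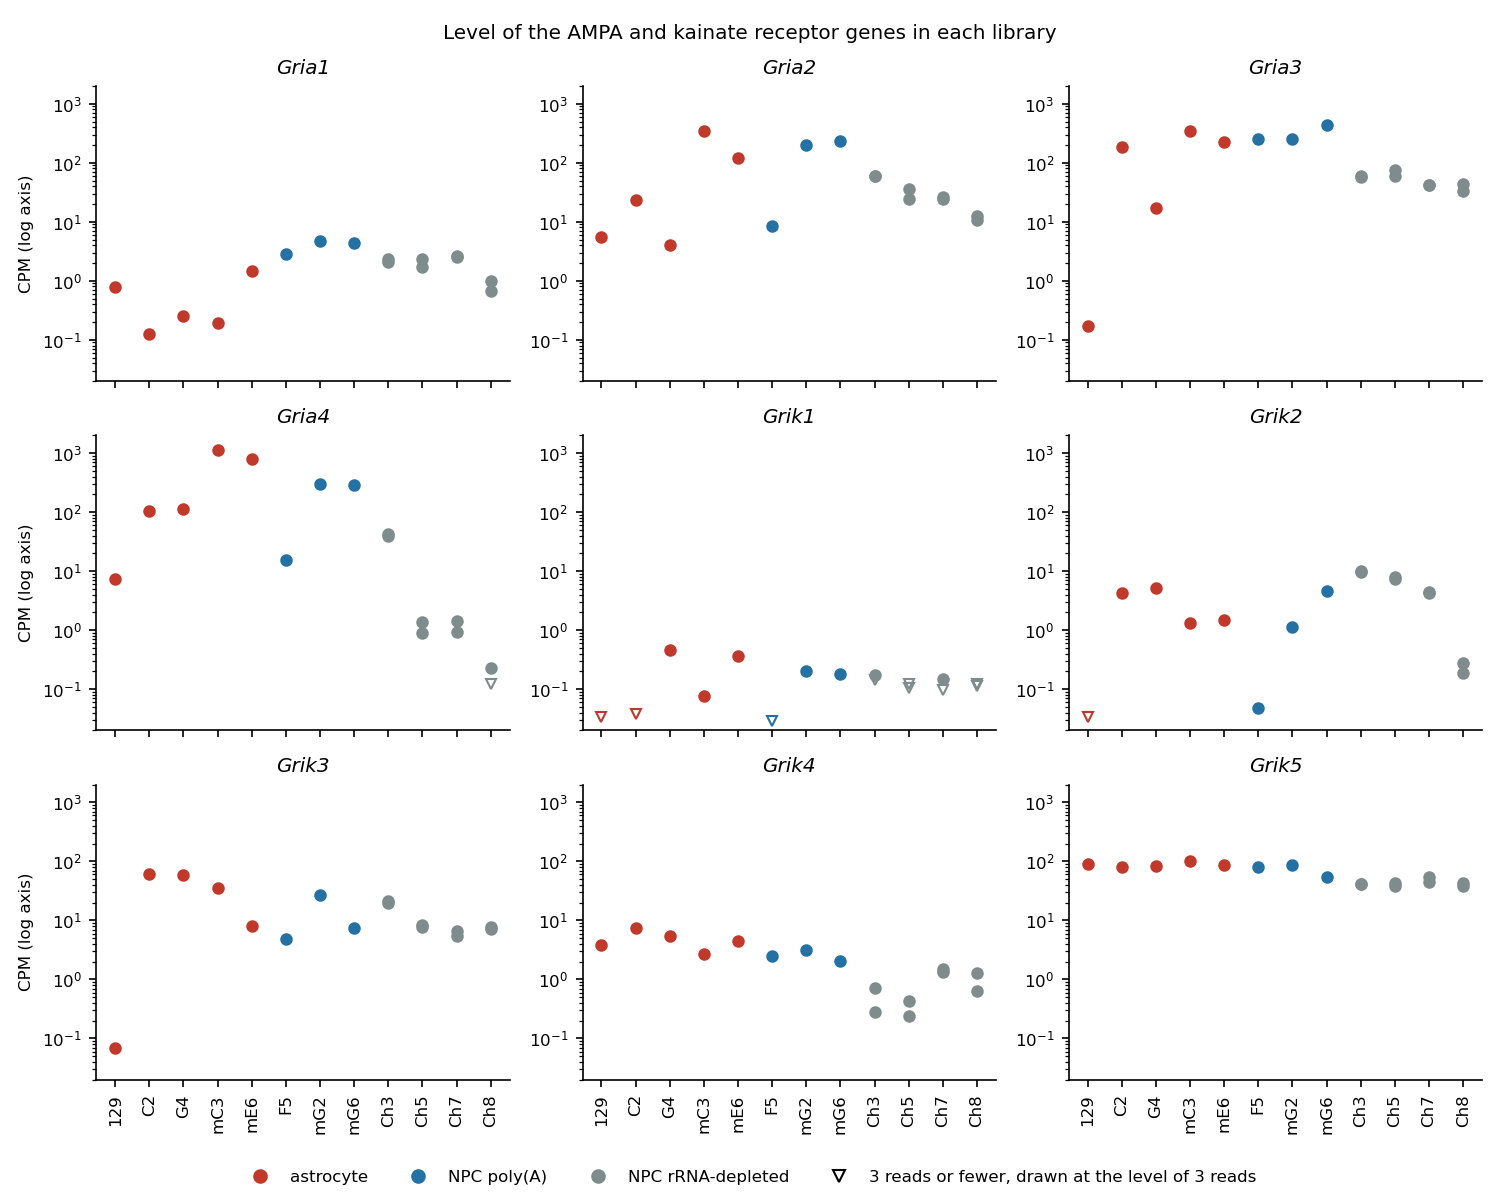
Level of each receptor gene in each of the 16 libraries, in CPM on a log axis. Points are libraries, coloured by group, and an open triangle marks 3 reads or fewer, drawn at the level of 3 reads. Grik5 stayed between 38.6 and 102.98 CPM in all libraries, while Gria2, Gria3, Gria4, Grik2 and Grik3 spread over orders of magnitude within a group.

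The first comparison asked which receptor genes differ in level between astrocytes and NPC after poly(A) enrichment, 5 clones against 3. The clones of the cell types also bear different title codes, whose meaning is not given in the labels, so cell type and code cannot be told apart. All 9 genes passed the filter on low counts, and 1 of 9 passed edgeR's quasi-likelihood test at an adjusted p under 0.05, where 25.5% of all 18192 genes tested did (and 12.6% in the direction lower in astrocytes). Their median log2 fold change was 0.44, beside 0.08 over all genes tested. The plot of fold changes shows how wide the errors were for most of them.

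Gria1, an AMPA receptor subunit that takes part in synaptic plasticity, was the gene that passed. It was at 0.783, 0.125, 0.249, 0.192 and 1.46 CPM in the astrocyte clones 129, C2, G4, mC3 and mE6, and at 2.80, 4.81 and 4.29 CPM in the NPC clones F5, mG2 and mG6. All astrocyte libraries lay below all poly(A) NPC libraries, and clone mE6 was the highest of the astrocytes. Gria1 fell by 2.76 ± 0.77 on the log2 scale (SE, edgeR adjusted p = 0.0324), from a level that was already low. The call was lost when some single libraries were left out: without G4 the adjusted p was 0.0592, without mC3 0.0600, without F5 0.0636, without mG2 0.0952 and without mG6 0.0742, with log2 fold changes of -2.54 to -2.96. In these fits the calls over all genes tested fell too, from 4644 to between 2269 and 3897. Over 13 alternatives the edgeR or DESeq2 adjusted p of Gria1 lay between 0.00192 and 0.0952, and the log2 fold change between -2.54 and -3.58, the latter without mE6.

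Grik4 and Grik5 encode kainate subunits that bind glutamate with high affinity and form channels only together with Grik1, Grik2 or Grik3. Grik4 was at 3.86, 7.54, 5.50, 2.66 and 4.50 CPM in the astrocyte clones (129, C2, G4, mC3, mE6) and at 2.48, 3.16 and 2.09 CPM in F5, mG2 and mG6. The groups overlapped only in that mC3 lay under mG2, and the difference reached an unadjusted p = 0.0420 in edgeR but not the adjusted threshold (log2 fold change 0.97 ± 0.41, adjusted p = 0.112). Grik5 was at 91.1, 80.9, 84.9, 102.98 and 87.8 CPM in the astrocyte clones and at 79.9, 87.0 and 54.3 CPM in the NPC clones. Its highest over lowest ratio was 1.27 among astrocytes, the smallest of the 9 genes, and 1.60 among poly(A) NPC, where that of Grik4 was 1.51, and its groups overlapped (log2 fold change 0.34 ± 0.17, adjusted p = 0.180 in edgeR).

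The other 6 genes had standard errors of 1.32 to 1.48 on the log2 scale and adjusted p of 0.493 to 0.858 in edgeR. Their fold changes were -0.51 for Gria2, -0.96 for Gria3, 1.13 for Gria4, 0.55 for Grik1, 0.44 for Grik2 and 1.44 for Grik3. A change between cell types of the size of these errors was not detectable here, since the clones within a group lay far apart, as the following paragraphs show. The sign of Gria2 turned to 0.29 with sex as a covariate and to 0.02 without mG6, that of Grik1 to -0.15 without G4, and that of Grik2 to -0.03 without G4 and to -0.14 without F5. Over 13 alternatives the fold change of Gria4 lay between 0.43 and 2.01. That of Grik3 lay between 1.03 and 2.46 and that of Gria3 between -1.47 and -0.64.

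**Figure D2:**
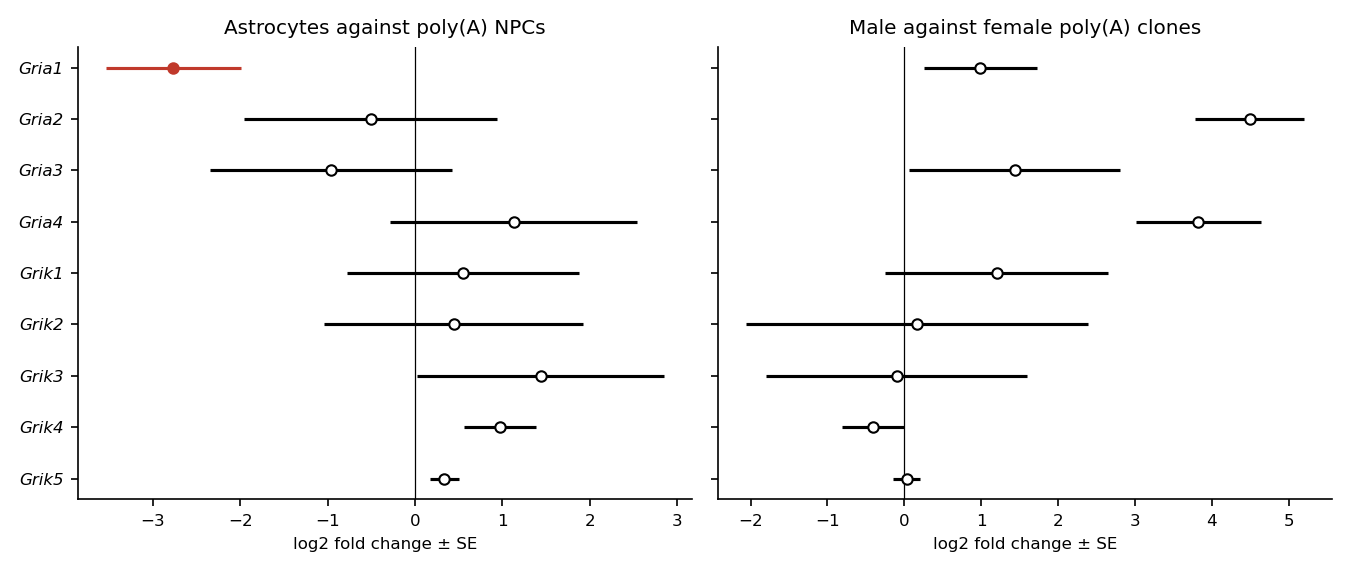
Log2 fold change of each receptor gene with its standard error, astrocytes against poly(A) NPC on the left (5 and 3 clones) and male against female clones on the right (4 and 4 clones, cell type in the fit). The filled point marks the gene past an adjusted p of 0.05, Gria1 at -2.76 on the left; on the right Gria2 (4.49) and Gria4 (3.83) lie farthest from 0.

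Gria2 and Gria4 split the poly(A) clones by sex. Gria2, the subunit that makes AMPA receptors nearly impermeable to calcium once its transcript is edited, was at 5.43, 23.4 and 4.01 CPM in the female astrocyte clones 129, C2 and G4 and at 352 and 119 CPM in the male clones mC3 and mE6. In NPC it was at 8.34 CPM in the female clone F5 and at 197 and 236 CPM in the male clones mG2 and mG6. All 4 male clones lay above all 4 female clones, in both cell types.

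Gria4, a subunit with fast gating that is common in glial progenitors, showed the same order. It was at 7.28, 105 and 115 CPM in the female astrocyte clones 129, C2 and G4, at 1109 and 787 CPM in mC3 and mE6, at 15.3 CPM in F5, and at 298 and 293 CPM in mG2 and mG6. Within either cell type the male clones were the highest, and the lowest male value was above the highest female value. Among these male clones, both astrocyte values lay above both NPC values. With sex as a covariate the log2 fold change of Gria4 between cell types was 2.01 (edgeR adjusted p = 0.116), against 1.13 without it. The Ch clones are male too, yet in their libraries Gria2 ran from 10.7 over a median of 25.1 to 59.5 CPM and Gria4 from 0.120 over 1.16 to 42.6 CPM. These were made by another preparation, so their values are given beside the others and not compared with them.

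The comparison of male with female clones was added after these values had been seen, and fitted sex with cell type as a covariate. With edgeR 0 of 9 receptor genes passed, where 0.0989% of all 18192 genes tested did (18 genes), and 2 of 9 had an unadjusted p under 0.05, beside 8.34% of all genes tested. These were Gria2 (log2 fold change 4.49 ± 0.71, unadjusted p = 0.000266, adjusted p = 0.131) and Gria4 (3.83 ± 0.81, unadjusted p = 0.00169, adjusted p = 0.259). DESeq2 called both (adjusted p = 3.76e-09 and 3.75e-05), with 2.12% of 21327 genes called. Over 12 alternatives the adjusted p lay between 3.76e-09 and 0.497 for Gria2 and between 3.75e-05 and 0.791 for Gria4, and the fold changes between 4.04 and 5.25 and between 3.30 and 4.09. With edgeR, Gria4 passed without clone 129 (adjusted p = 0.0164) and Gria2 without clone C2 (0.0244) or with no filter on low counts (0.0271). Male and female clones come from different ES cell lines, so sex and line cannot be told apart. By their title codes, clones 129, mC3 and mE6 form 1 set, F5, mG2 and mG6 another and C2 and G4 the last, which has no male clone; within either of the first sets the male clones were higher in both genes.

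Among markers of the oligodendrocyte lineage, Cspg4 differed in the same direction between the poly(A) clones. Of 8 listed genes 6 were tested, 1 passed in edgeR (Cspg4, log2 fold change 6.76 ± 0.64, adjusted p = 0.0130), and 2 had an unadjusted p under 0.05, both higher in male clones, Olig1 being the other (1.28 ± 0.45, adjusted p = 0.516). Cspg4, a proteoglycan of oligodendrocyte precursors named here after its values had been seen, was at 0.431, 0.0876 and 0.0748 CPM in 129, C2 and G4, at 20.1 and 18.6 CPM in mC3 and mE6, at 0.161 CPM in F5, and at 18.7 and 22.5 CPM in mG2 and mG6. The summed level of the 8 genes was 293, 228, 390, 674 and 1444 CPM in the astrocyte clones 129, C2, G4, mC3 and mE6 and 1180, 1521 and 1141 CPM in F5, mG2 and mG6, with Olig1 the most abundant in each. Sox10 and Mog, which define the lineage and its mature cells, had 3 reads or fewer in all 8 libraries, and Pdgfra, the receptor of the precursors, did not follow sex (-0.80 ± 0.57). In the libraries of the male Ch clones, made by the other preparation, Cspg4 ran from 0.0479 over a median of 3.00 to 5.88 CPM. It had 3 reads or fewer in library 1 of Ch3, the Ch clone highest in Gria2 and Gria4. The part of these markers in the result was not tested. Of 16 AMPA auxiliary subunit genes 14 were tested in the same fit and 0 passed with edgeR, with 4 at an unadjusted p under 0.05, all higher in male clones (Shisa7, Shisa9, Cpt1c and Frrs1l); over all genes tested 4.20% were higher in male clones at that p.

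Promoter sequences, from RefSeq on GRCm38.p6, were at hand for 6 of the 9 genes (Gria2, Gria4, Grik2, Grik3, Grik4 and Grik5), and not for Gria1, Gria3 and Grik1. Those of Gria2 and Gria4 are shown because both genes were higher in all male than in all female poly(A) clones, each from 250 bases before to 50 bases after 1 RefSeq start of the gene and 5′ to 3′ on the strand of the gene, which is the minus strand for both. The Gria2 sequence lies at chr3:80802786-80803085 and that of Gria4 at chr9:4796185-4796484. The start used is the outer end of the RefSeq gene in Gria4 and lies 1392 bases inside it in Gria2, and which start these cells use was not tested. In Gria2 the capitals mark a match to AGCACCNNGGACAGC, written after the core of the RE1 element and chosen after the sequence had been seen; in Gria4 they mark CpG dinucleotides.
Gria2: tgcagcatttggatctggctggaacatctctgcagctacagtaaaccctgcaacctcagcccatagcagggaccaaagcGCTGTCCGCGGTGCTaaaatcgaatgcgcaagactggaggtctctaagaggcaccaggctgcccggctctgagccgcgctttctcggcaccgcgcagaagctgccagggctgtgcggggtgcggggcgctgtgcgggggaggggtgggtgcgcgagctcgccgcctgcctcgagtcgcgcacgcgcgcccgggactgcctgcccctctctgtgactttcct
Gria4: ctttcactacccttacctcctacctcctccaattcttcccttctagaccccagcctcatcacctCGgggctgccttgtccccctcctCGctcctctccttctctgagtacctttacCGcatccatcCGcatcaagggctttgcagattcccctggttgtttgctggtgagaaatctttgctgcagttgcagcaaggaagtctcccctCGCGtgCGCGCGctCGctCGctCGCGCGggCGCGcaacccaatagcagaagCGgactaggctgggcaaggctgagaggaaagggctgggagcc
Both strands were searched for the 15-base motif, which was found in 10 of 32851 promoters (0.0304%) and in Gria2 alone among the 6. It lay on the strand opposite to the gene, 156 bases before that start. Gria2 held 26 CpG and Gria4 17, beside a median of 7 over all promoters; 16.9% and 31.4% of promoters had as many. A match in letters describes the sequence and shows no binding.

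The allelic ratios of Gria2 and Gria4 in the same clones differed from each other. Gria4 was monoallelic for Cast (over 85%) in 129 (96.4%, 92.7 to 98.2), G4 (92.0%, 90.8 to 93.0) and F5 (97.2%, 95.3 to 98.3), while C2, at 64.3% (62.3 to 66.2), lay just inside the biallelic range. In mC3, mE6, mG2, mG6 and Ch3 it was biallelic too, at 49.6, 50.04, 49.4, 52.9 and 46.3%. Among poly(A) clones the 4 female ones, with the low levels, were thus shifted to Cast, while the 4 male ones lay within 3 points of equal expression. The male clones Ch5, Ch7 and Ch8, made by the other preparation, had too few reads for a ratio, with 11 of 14, 13 of 14 and 1 of 2 allele-specific reads from Cast. In clone 129 the Cast allele gave 2.12 CPM and the 129 allele 0.0794 CPM, in G4 28.0 and 2.44 CPM, in F5 4.58 and 0.132 CPM, and in C2 18.0 and 10.0 CPM; in mC3 both gave over 160 CPM (163 and 166). Both alleles were therefore lower in female than in male poly(A) clones, the 129 allele the more so. The median ratio of the other chromosome 9 genes within 10 Mb lay between 49.4 and 51.3% in the 8 poly(A) clones, so the shift was not shared by the neighbourhood.

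Gria2 was never monoallelic. It was biallelic in 7 of 12 clones, among them F5 (48.8%, 40.03 to 57.6), mC3 (52.7%, 51.3 to 54.0), mE6 (50.8%) and mG6 (51.5%), and biased to 129 in C2 (28.9%, 24.4 to 33.8), mG2 (26.9%, 25.1 to 28.7), Ch5 (20.8%), Ch7 (31.2%) and Ch8 (32.2%). Clones mG2 and mG6 had similar total levels, but in mG2 the Cast allele gave 8.80 CPM and the 129 allele 23.9 CPM, against 22.0 and 20.7 CPM in mG6. In G4 the ratio was 64.7% (52.8 to 75.0), close to the median of 66.0% over chromosome 3 in that clone, where the median of the other 11 clones lay between 48.9 and 49.6%. The plot of reads by allele shows both Gria4 alleles lower in the female than in the male poly(A) clones. In these female clones the 129 allele lay under the Cast allele. Male clone Ch3, made by the other preparation, was low too, at 3.60 CPM for Cast and 4.16 CPM for 129. Gria2 leaves the diagonal toward 129 in some clones.

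**Figure D3:**
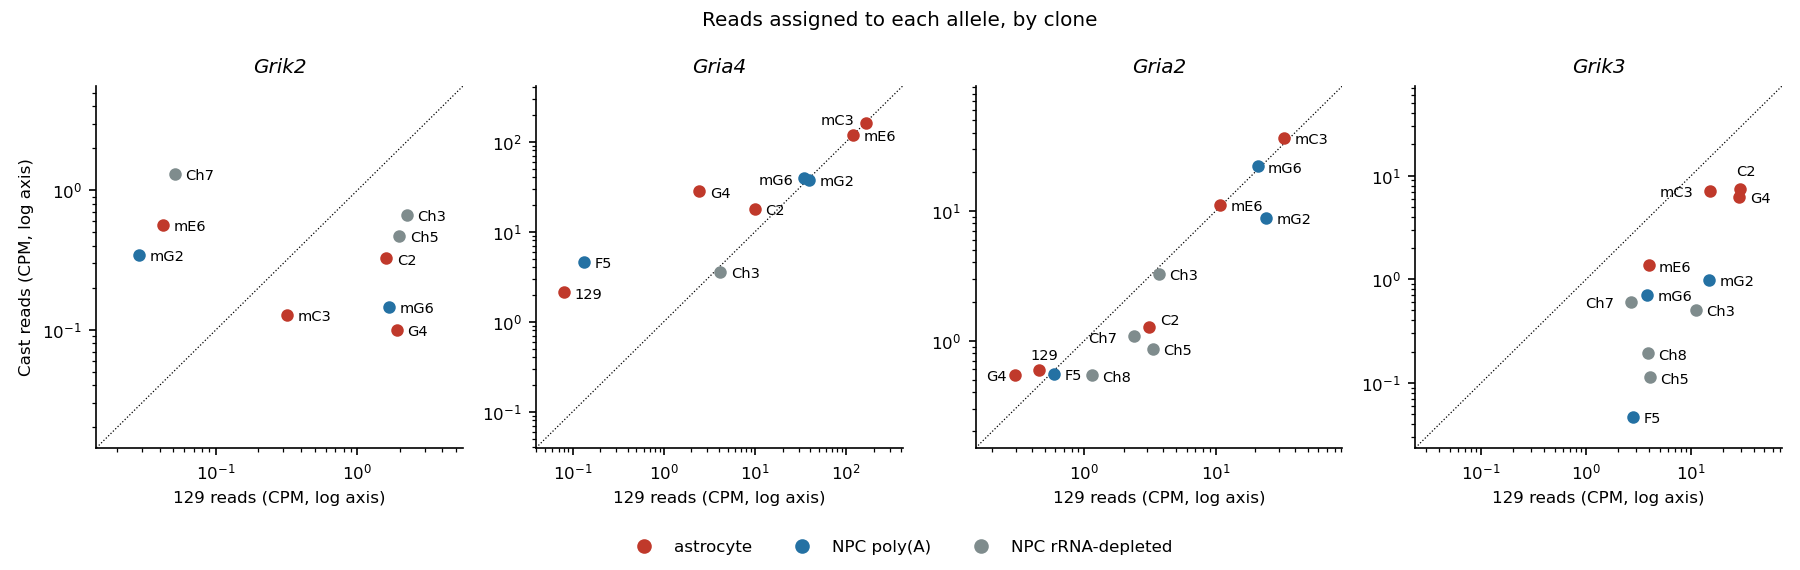
Reads of the 129 allele against reads of the Cast allele, both in CPM on log axes, for clones with at least 20 allele-specific reads (points, coloured by group). The dotted line marks equal expression. Grik2 has clones far from the line on both sides, Grik3 on the 129 side alone, Gria4 on or toward the Cast side except for Ch3 and some values next to the line, and Gria2 on the line or toward 129 except for 129 and G4.

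Gria3 lies on the X chromosome, of which male clones carry the maternal 129 copy alone, while in the female clones the X-linked genes had median ratios of 98.9 to 99.9% Cast. Total levels were 0.170, 185 and 17.0 CPM in 129, C2 and G4, 349 and 223 CPM in mC3 and mE6, 256 CPM in F5, 249 and 437 CPM in mG2 and mG6, and 33.3 to 76.1 CPM (median 49.9) in the Ch libraries. Clone 129 was near 0 with 15 reads and G4 was low, while the other 6 poly(A) clones lay between 185 and 437 CPM. Ratios were 99.9% in C2 and 99.8% in F5, and at most 1.17% in the 8 male clones. In G4 the ratio was 84.0% (74.5 to 90.4, from 81 reads), below the median of the X-linked genes of that clone, the 98.9% above, and of its neighbours within 10 Mb (98.5%). Summed over all X-linked reads the Cast share was 73.1 to 78.2% in the female clones, C2 and F5 included. In this gene 4.43 to 7.40% of the reads could be given to an allele in clones with a ratio, so the values rest on fewer reads than the levels.

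Gria1 reads were few, at 29 to 119 allele-specific reads in the 8 clones with at least 20, and in all 8 the ratio favoured Cast. It was monoallelic in 129 (96.9%, 84.3 to 99.4), mE6 (98.1%, 89.9 to 99.7), F5 (100%, 95.8 to 100), Ch3 (94.1%, 80.9 to 98.4) and Ch7 (90.9%, 78.8 to 96.4). In mG2 (77.8%, 69.1 to 84.6), mG6 (84.0%, 76.4 to 89.5) and Ch5 (75.9%, 57.9 to 87.8) it was biased to Cast. The intervals of several of these clones overlapped, and the neighbours within 10 Mb had medians between 48.1 and 50.4% in these 8 clones.

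Grik2, a kainate subunit that can form channels without other subunits, was low and uneven. It had 1 read in clone 129 (0.0113 CPM) and was at 4.26 and 5.22 CPM in C2 and G4, at 1.34 and 1.49 CPM in mC3 and mE6, at 0.0472 CPM in F5, and at 1.12 and 4.54 CPM in mG2 and mG6. The Ch clones Ch3, Ch5, Ch7 and Ch8 had 9.79, 7.58, 4.26 and 0.232 CPM over their 2 libraries. Clones nearly without Grik2 occurred in each of the 3 groups (129, F5 and Ch8), and the astrocyte and poly(A) NPC ranges overlapped almost entirely.

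The ratio of Grik2 lay far from equal in every clone that had enough reads. It was 16.9% (11.8 to 23.6) in C2, 4.97% (2.54 to 9.50) in G4, 28.6% (16.3 to 45.1) in mC3 and 93.0% (83.3 to 97.2) in mE6 among astrocytes. Among NPC it was 92.3% (75.9 to 97.9, from 26 reads) in mG2, 8.05% (4.67 to 13.5) in mG6, 23.1% (16.9 to 30.6) in Ch3, 19.2% (13.4 to 26.8) in Ch5 and 96.2% (89.4 to 98.7) in Ch7. Thus 6 clones favoured the 129 allele and 3 the Cast allele, both directions were seen in astrocytes, in poly(A) NPC and in the Ch clones, and 0 of 9 were biallelic. In mE6, mG2 and Ch7, which favoured Cast, the 129 allele gave 0.0286 to 0.0515 CPM, in C2, G4, mG6, Ch3 and Ch5 it gave 1.60 to 2.23 CPM, and in mC3 0.319 CPM. The median ratio of the neighbours on chromosome 10 within 10 Mb lay between 47.7 and 49.8% in these 9 clones.

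Grik2 was the only autosomal receptor gene with a ratio under 15% in some clones and over 85% in others. Among all 11317 autosomal genes with a ratio in at least 6 clones, 251 (2.22%) had both, and among the 7 receptor genes in that set it was Grik2 alone. The standard deviation (SD) of its ratio was 39.2 points over 9 clones, beside 5.46 points that sampling of the reads alone would give, and 0.106% of the autosomal genes had an SD as large. The study took up Grik2 because earlier work had found its allelic bias to vary between NPC clones, so this rank describes a gene chosen for the pattern and is no test of it. Among its paralogs the SD over clones was 22.2 points for Gria4 (9 clones), 15.2 for Grik4 (9), 13.9 for Gria2 (12), 10.3 for Grik3 (11), 9.37 for Gria1 (8) and 2.11 for Grik5 (12), beside a median of 5.19 over autosomal genes. Sampling alone would give 1.75 points for Gria4, 5.92 for Grik4, 3.59 for Gria2, 1.89 for Grik3, 4.59 for Gria1 and 1.38 for Grik5. The SD of Grik2 was 39.3 points in astrocyte clones (n = 4) and 42.8 in NPC clones (n = 5), a difference that was not tested. The astrocyte value rested on mE6, without which it was 11.8 points, while in NPC it lay between 38.3 and 46.8 with any 1 clone left out. Within astrocytes and within NPC the SD was 6.34 and 6.59 points for Grik3 and 1.57 and 1.06 for Grik5, so their values over all clones partly hold the difference between these groups.

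**Figure D4:**
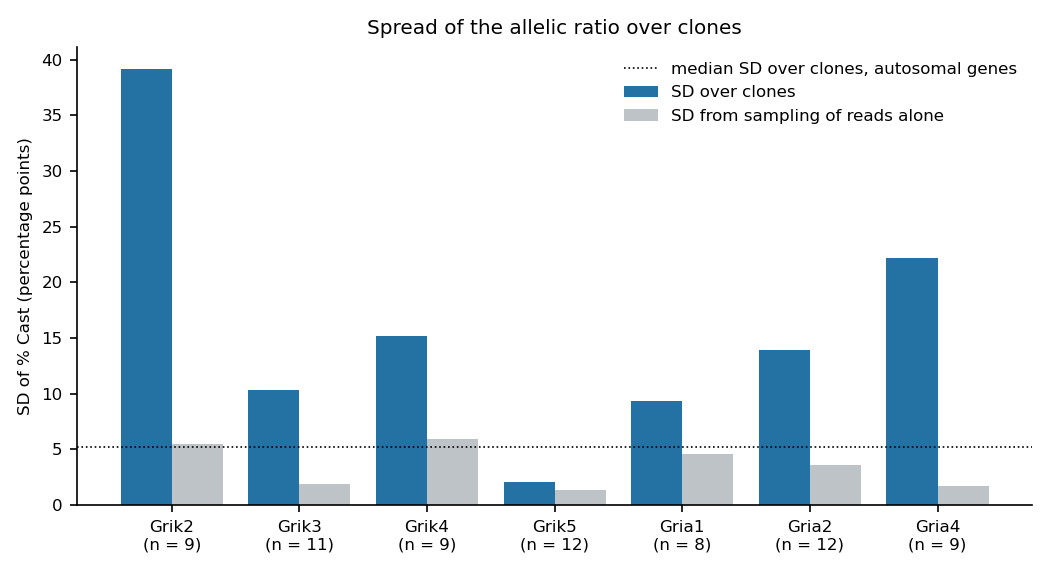
Standard deviation of the allelic ratio over clones, in percentage points, for the 7 autosomal receptor genes with a ratio (n, clones with at least 20 allele-specific reads), beside the SD that binomial sampling of the reads alone would give. The dotted line marks the median SD of 5.19 points over autosomal genes. Grik2 stands at 39.2 points and Grik5 at 2.11.

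The promoters of Grik2 and Grik5 are shown as those of the least and the most even of the 7 autosomal receptor genes in allelic ratio. They lie at chr10:49788705-49789004 and chr7:25072320-25072619, both on the minus strand, again from RefSeq on GRCm38.p6 and 5′ to 3′ along the gene, with CpG dinucleotides in capitals. The starts used lie 1407 (Grik2) and 3325 bases (Grik5) inside the outer ends of the RefSeq genes, so the sequences may not be those of the starts in use.
Grik2: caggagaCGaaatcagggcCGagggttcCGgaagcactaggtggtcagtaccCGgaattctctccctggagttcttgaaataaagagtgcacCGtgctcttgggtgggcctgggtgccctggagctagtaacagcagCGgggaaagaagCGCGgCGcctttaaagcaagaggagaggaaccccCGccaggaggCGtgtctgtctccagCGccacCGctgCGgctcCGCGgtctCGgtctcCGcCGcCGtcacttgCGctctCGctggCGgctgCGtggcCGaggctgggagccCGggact
Grik5: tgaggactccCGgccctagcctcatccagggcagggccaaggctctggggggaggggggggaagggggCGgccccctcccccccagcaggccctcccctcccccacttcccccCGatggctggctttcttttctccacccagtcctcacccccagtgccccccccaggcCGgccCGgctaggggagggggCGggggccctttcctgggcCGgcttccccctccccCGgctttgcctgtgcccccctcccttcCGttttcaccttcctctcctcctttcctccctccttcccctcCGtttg
Grik2 held 26 CpG in its 300 bases and Grik5 10, and 16.9% and 43.5% of promoters had as many. Grik3, with 50, and Grik4, with 42, had more, counts reached by 0.855% and 3.03% of promoters.

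Grik3, a kainate subunit of low glutamate affinity, favoured the 129 allele in all 11 clones with a ratio. Its level was 0.0681 CPM in clone 129 (6 reads), 60.7 and 57.7 CPM in C2 and G4, 35.3 and 7.93 CPM in mC3 and mE6, 4.77 CPM in F5, 26.5 and 7.39 CPM in mG2 and mG6, and 5.41 to 21.1 CPM (median 7.66) in the Ch libraries. C2, G4 and mC3 lay above all poly(A) NPC libraries, mE6 among them and clone 129 below. The ratio was 20.3% (18.9 to 21.8) in C2, 17.8% (16.5 to 19.3) in G4, 32.1% (30.0 to 34.3) in mC3 and 25.8% (22.1 to 29.8) in mE6. In NPC it was 1.66% (0.709 to 3.82) in F5, 6.20% (4.93 to 7.77) in mG2, 15.6% (12.3 to 19.7) in mG6, 4.41% (3.00 to 6.43) in Ch3, 2.73% (1.26 to 5.82) in Ch5, 18.4% (13.6 to 24.5) in Ch7 and 4.76% (2.61 to 8.54) in Ch8. The poly(A) NPC clones lay below the astrocyte clones without overlap, and of the Ch clones Ch7 lay above G4. Chromosome 4 as a whole was at a median of 44.8% in C2 and G4 and between 49.0 and 49.7% in the other 10 clones.

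Grik4 was biallelic in 6 of 9 clones, biased to Cast in 129 (75.9%, 67.3 to 82.7) and to 129 in F5 (25.6%, 17.7 to 35.4) and Ch7 (33.3%, 18.0 to 53.3, from 24 reads). G4 was at 64.9% (57.1 to 72.0), and the other 5 clones lay between 42.8 and 54.7%. Grik5 was biallelic in all 12 clones, at 44.7 to 48.3% in the astrocytes, 48.6 to 50.4% in poly(A) NPC and 47.8 to 50.4% in the Ch clones. The astrocyte values lay below the poly(A) NPC values without overlap, though clone 129 (48.3%) came close to F5 (48.6%). Grik1, a kainate subunit, had 0 to 37 reads per clone and no ratio; its most reads were in G4 (37 reads, 0.461 CPM) and mE6 (34 reads, 0.362 CPM), and 0 reads in clone 129 allow up to 0.0340 CPM.

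**Figure D5:**
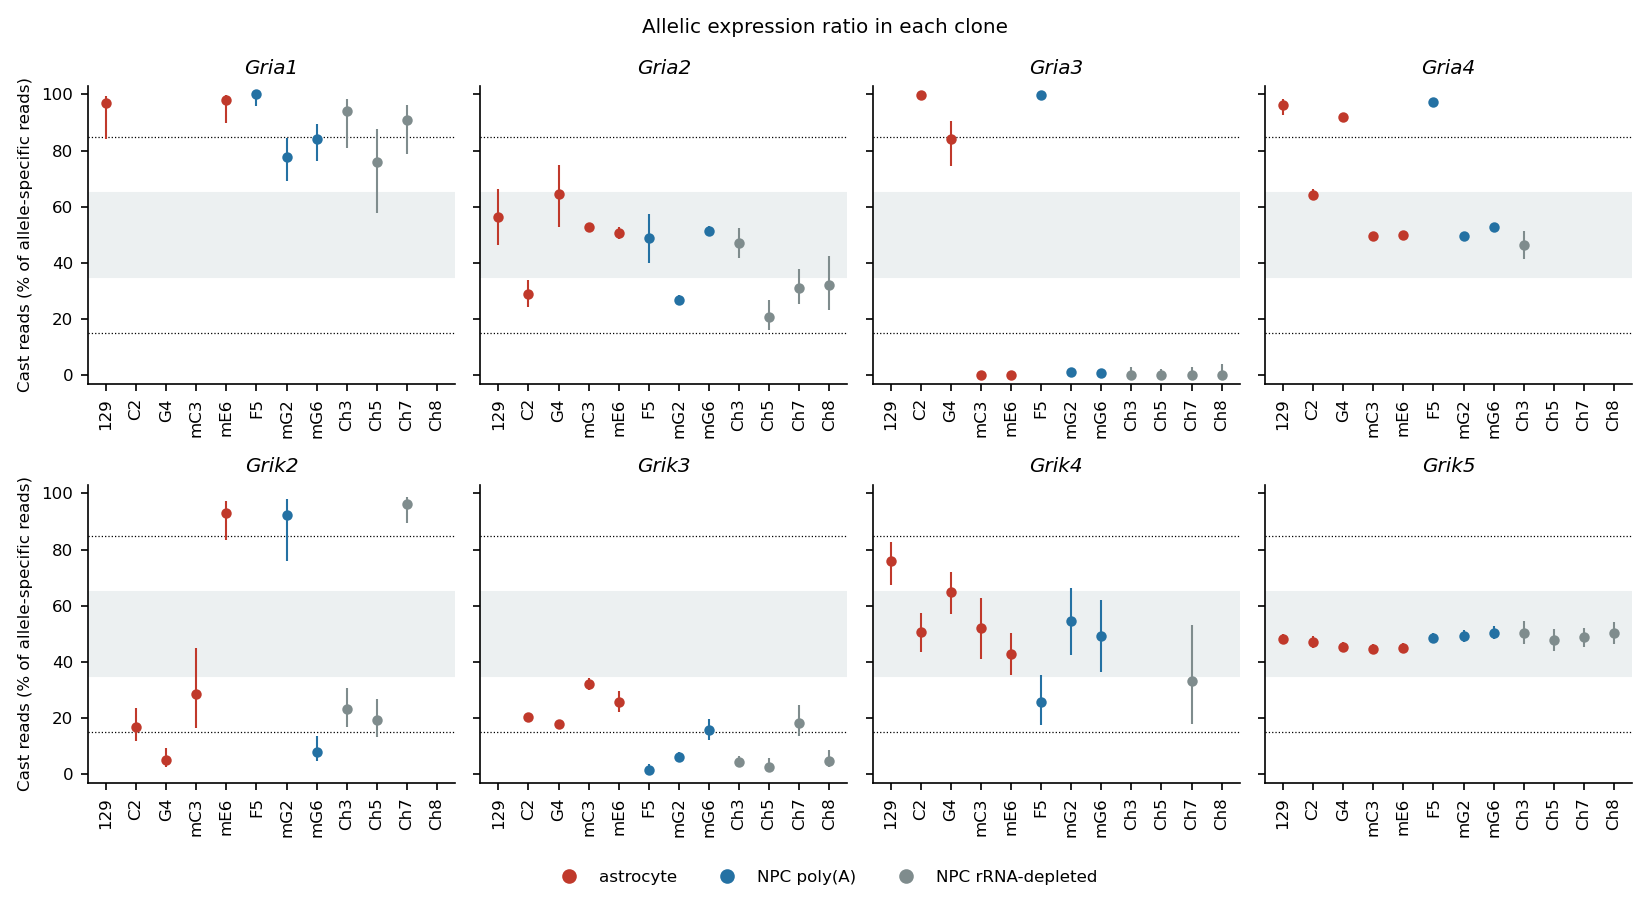
Cast share of the allele-specific reads, in percent, for each clone with at least 20 such reads, with 95% Wilson intervals, in 8 receptor genes; Grik1 had too few reads. The shaded band marks the biallelic range of 35 to 65% and the dotted lines 15 and 85%. Grik2 has clones beyond both lines, Grik3 lies under the band in every clone shown and Grik5 within it.

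Of the 81 ratios of the 9 genes, 31 were biallelic, 28 monoallelic and 22 biased, and 27 more gene and clone pairs had too few reads. Without Gria3, which lies on the X chromosome, 18 of 70 ratios (25.7%) were monoallelic and 31 (44.3%) biallelic. Over all autosomal genes 5.60% of ratios were monoallelic and 82.0% biallelic. These shares stand side by side as a description and are no test. The families were chosen around Grik2, which the study took up for its varying allelic bias. Grik2 gave 5 of the 18 monoallelic and 0 of the 31 biallelic ratios. Ratios of the same gene in several clones are not independent, and reads per gene were not matched. The monoallelic values came from Grik2 (5), Grik3 (5), Gria1 (5) and Gria4 (3), and none from Gria2, Grik4 or Grik5. In Grik3 all 5 were of the 129 allele, in Gria1 and Gria4 all of the Cast allele, and in Grik2 2 were of the 129 and 3 of the Cast allele.

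Whether the mean ratio differs between astrocytes and poly(A) NPC could be tested where all 8 libraries held 20 or more allele-specific reads, which was so for Gria2, Gria4, Grik4 and Grik5. With edgeR 0 of 4 passed, where 0.703% of 10959 genes tested did, and 1 of 4 had an unadjusted p under 0.05; no other tool was run for allelic reads. That gene was Grik5, whose Cast over 129 ratio was lower in astrocytes by a log2 value of -0.20 ± 0.06 (unadjusted p = 0.0174, adjusted p = 0.217). For Gria2 (0.50 ± 0.56) and Gria4 (0.28 ± 1.85) the errors were larger than the shift, and Grik4 (0.88 ± 0.61) did not pass either. Grik2 and Grik3 could not enter, since clone 129 lacked reads in both and F5 in Grik2. Without clone 129, Grik3 was tested and did not pass (2.25 ± 0.80, unadjusted p = 0.0299, adjusted p = 0.260 in edgeR).

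Whether 1 allele was favoured on average was tested after the ratios had been seen. In the 8 poly(A) clones 1 of 4 receptor genes passed in edgeR, where 41.5% of 10073 autosomal genes tested did. It was Grik5, with a Cast over 129 log2 ratio of -0.16 ± 0.04 (adjusted p = 0.0236), a value below 0 in 7 of 8 clones; Gria4 stood at 1.47 ± 0.77 (adjusted p = 0.162). Without C2, G4, mC3 or mE6 the Grik5 adjusted p was 0.0501, 0.0501, 0.0576 and 0.0581, and without clone 129 Grik3 could be tested too and passed (-2.49, adjusted p = 0.00786). In the Ch clones 2 of 3 passed, where 35.4% of 10279 autosomal genes did: Grik3 at -3.92 ± 0.55 (adjusted p = 0.00536), lower for Cast in 4 of 4 clones, and Gria2 at -1.06 ± 0.30 (adjusted p = 0.0478), lower in 4 of 4. The Gria2 call was lost without Ch5 (adjusted p = 0.112), Ch7 (0.149) or Ch8 (0.138), and over 6 alternatives lay between 0.000571 and 0.149. Gria1 had too few reads in Ch8 for the main fit and was tested in 2 alternatives, with at least 10 reads or without Ch8. It passed in both, toward Cast (log2 ratio 2.79 to 2.82, edgeR adjusted p from 0.00827 to 0.0370).

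The Ch clones, with 2 libraries each, allowed a test of differences between clones against the spread between libraries. In total level 7 of 8 receptor genes tested differed between the 4 clones in edgeR, where 16.6% of 17095 genes did; Grik1 had too few reads to be tested. Gria4 was at 42.6 and 39.4 CPM in the libraries of Ch3, at 1.38 and 0.893 CPM in Ch5, at 0.938 and 1.43 CPM in Ch7, and at 0.224 and 0.120 CPM in Ch8 (adjusted p = 5.51e-08). Ch3 stood far above the others, which were all under 1.5 CPM. Grik2 was at 9.49 and 10.0 CPM in Ch3, 7.79 and 7.34 CPM in Ch5, 4.17 and 4.35 CPM in Ch7, and 0.186 and 0.280 CPM in Ch8 (adjusted p = 1.87e-06). Its 4 clones kept apart in both libraries, with Ch8 near 0. Gria2 fell from 59.5 and 59.3 CPM in Ch3 over 36.1 and 24.4 CPM in Ch5 and 25.9 and 24.0 CPM in Ch7 to 12.5 and 10.7 CPM in Ch8 (adjusted p = 5.77e-05), with Ch5 and Ch7 overlapping. Ch3 was the highest of the 4 in Gria2, Gria4, Grik2 and Grik3 (adjusted p = 3.07e-05 for Grik3).

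Gria1, Gria3 and Grik4 passed by less (adjusted p = 0.0127, 0.0234 and 0.0461 in edgeR), and Grik5 did not (0.0838, between 38.6 and 53.6 CPM). Leaving out single libraries moved these calls. Gria3 was lost without either library of Ch3 or of Ch7 (adjusted p = 0.0616, 0.0575, 0.0530 and 0.0615), and Gria1 without library 1 of Ch8 (0.0580). Grik4 was lost without library 2 of Ch3 (0.0655) and without either library of Ch5 (0.0748 and 0.113) or of Ch7 (0.196 and 0.131). Grik5 was gained in 1 of 12 alternatives, with no filter on low counts (edgeR adjusted p = 0.0234). The other 4 genes passed in all 12 alternatives, with adjusted p of at most 0.00106 in Grik3.

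In allelic ratio 2 of 4 receptor genes tested differed between the 4 Ch clones in edgeR, where 8.79% of 11428 genes did; Gria3 could not differ, since these male clones carry the 129 copy alone. Those that passed were Grik3 (adjusted p = 3.55e-06), with Ch7 at 18.4% above the 2.73 to 4.76% of the other 3, and Gria2 (adjusted p = 0.000436), with Ch3 at 47.1% above the 20.8 to 32.2% of the other 3. Grik5 was at 47.8 to 50.4% (adjusted p = 0.983). The Grik3 call was lost without library 1 of Ch7 (0.145) and the Gria2 call without library 1 of Ch5 (0.0832); over 12 alternatives they lay between 2.93e-07 and 0.145 and between 0.000143 and 0.0832. Between the 2 libraries of 1 clone, 20 pairs of ratios of autosomal genes were compared by Fisher's exact test (two-sided), which takes reads as independent, and 1 had a p under 0.05 (Grik3 in Ch5, 5.08% against 0%, p = 0.0316); the median difference was 3.28 points and the largest 15.6.

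Grik2 had too few reads in Ch8 for that fit, so clones Ch3, Ch5 and Ch7 were also fitted alone, a choice made after the data had been seen. There 3 of 6 receptor genes passed, where 7.61% of 11569 genes did, and Grik2 was among them (adjusted p = 6.72e-17 in edgeR). Its ratios in the 2 libraries of each clone were 16.4 and 27.3% in Ch3, 18.8 and 20% in Ch5, and 94.3 and 97.7% in Ch7. Ch7 stood apart from the other 2 in both libraries, with 35 and 44 allele-specific reads.

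By the rule for likeness, the genes whose log2 CPM ran most like that of Grik2 over the 8 poly(A) libraries were Gm14416, D730045B01Rik, Igfbp7 and Dlg2, with Pearson's r of 0.98 to 0.95 among 18191 other genes; r over so few libraries is a description only. Dlg2, which encodes a synaptic scaffold protein, was low throughout, at 0.0113 to 0.549 CPM in astrocytes and 0.0472 to 0.404 CPM in poly(A) NPC. Grik2 itself had 1 read in clone 129 and 5 in F5, and how far these r rest on such clones was not tested. Among the receptor genes the r with Grik2 was 0.83 for Grik3, 0.76 for Gria4, 0.72 for Grik1, 0.59 for Gria3, 0.44 for Gria2, 0.27 for Grik4, -0.25 for Gria1 and -0.29 for Grik5. In allelic ratio, over the 9 clones with a Grik2 ratio, the most alike of 9731 autosomal genes were Wnt5b (0.87), Pex16 (0.87), Sfxn5 (0.84), Arih1 (0.84) and Dab2 (0.82). None of these reached both sides: Wnt5b ran from 20.7 to 35.6% and Pex16 from 35.7 to 60.4%, where Grik2 ran from 4.97 to 96.2%. The r of Gria2, Grik3 and Grik5 with Grik2 was -0.32, 0.09 and -0.01.

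Genes that work with these receptors were described by fixed lists, in astrocytes against poly(A) NPC, where 13.0% of all genes tested rose and 12.6% fell, with a median log2 fold change of 0.08. Of the 7 NMDA receptor genes, the other calcium-permeable ionotropic family, all were tested and 3 rose and 0 fell (Grin3a, Grin3b and Grin2d), with a median log2 fold change of 0.67. Grin3a, a subunit that lowers calcium flux, was at 28.0, 147, 490, 573 and 725 CPM in astrocytes 129, C2, G4, mC3 and mE6 and at 0.774, 25.6 and 19.98 CPM in F5, mG2 and mG6 (4.75 ± 1.40, edgeR adjusted p = 0.0390). Every astrocyte library lay above every poly(A) NPC library, by little in clone 129. Grin3b (2.46 ± 0.73, at most 0.170 CPM) and Grin2d (1.16 ± 0.34, at most 1.61 CPM) were low throughout.

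Of the 8 metabotropic receptor genes, which signal through G proteins, 4 were tested, and Grm3 (-2.77 ± 0.68) and Grm4 (-3.87 ± 0.96) fell. Grm5, the most abundant of them, was at 0.250 to 37.5 CPM in astrocytes and 7.94, 176 and 180 CPM in F5, mG2 and mG6 and did not pass (-3.51 ± 1.41, adjusted p = 0.101 in edgeR). Of the 16 AMPA auxiliary genes, which set the trafficking and gating of AMPA receptors, 14 were tested, 1 rose and 3 fell. Cacng7 rose from 36.0 to 47.8 CPM in poly(A) NPC to 66.6 to 107 CPM in astrocytes (1.10 ± 0.18), and Cacng4 (-1.63 ± 0.36), Cacng5 (-6.39 ± 1.44) and Frrs1l (-2.74 ± 0.78) fell. Cacng2, whose product stargazin is the best known of them, and Cacng3 had 3 reads or fewer in all poly(A) libraries; both are named here after their values were seen.

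Of the 11 tested scaffold and trafficking genes 3 rose, Pick1 (0.86 ± 0.19) and Grip2 (3.12 ± 0.75, from at most 0.0572 CPM in poly(A) NPC to at most 0.685 CPM in astrocytes), which bind the tails of AMPA subunits, and Dlg1 (0.62 ± 0.20), while Nptx1, the most abundant, was at 62.3 to 1116 CPM in astrocytes and 94.3 to 428 CPM in NPC. With edgeR 0 of 2 delta receptor genes (most abundant Grid1, 0.32 ± 0.69), 0 of 2 kainate auxiliary genes (Neto2, -0.44 ± 0.30) and 0 of 3 RNA editing genes (Adar, 0.07 ± 0.31) passed. Of the other marker lists, 1 of 11 tested neuron markers rose (Snap25, 4.09 ± 1.17), where the median of the list was -0.40, with the glutamate transporter gene Slc17a6 at 3 reads or fewer in all poly(A) libraries, 2 of 2 endothelium markers rose (Kdr, 4.99 ± 0.91, and Pecam1, 2.67 ± 0.70) with Cdh5 and Cldn5 at 3 reads or fewer in every astrocyte library, 1 of 3 fibroblast markers rose (Col1a1, 6.59 ± 1.58) with Dcn at 0.05, Thy1 at -2.30 and Col1a2 at 3 reads or fewer in 4 of 5 astrocyte libraries, 2 of 3 ES cell markers fell (Pou5f1 and Dppa5a, both under 0.6 CPM in NPC), and 0 of 6 oligodendrocyte and 0 of 1 microglia markers (Csf1r) passed in edgeR. Their part in the receptor values was not tested.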

How the data were processed

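RNA-seq of 16 libraries was used (5 astrocyte, 3 poly(A) NPC and 8 ribosomal RNA-depleted NPC libraries). The authors aligned reads to an N-masked GRCm38 (mm10) genome with TopHat2 2.1.0, split them by allele and counted read pairs per gene and strand with featureCounts 1.5.1. They deposited counts of Cast, 129 and all reads for 50600 genes, without normalization, and the Cast fraction of allele-specific reads where there were at least 10; the fraction equals that of the counts within 5e-07 and was not used further. Symbols were found for 30050 genes, RefSeq positions for 25904 and exon lengths for 32722. Paralog reads are separated only as far as that counting did.

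CPM were computed from all-read counts over reads on genes. Ratios needed 20 allele-specific reads; under 15% or over 85% is monoallelic, 35 to 65% biallelic and the rest biased. For ratios, reads were added over both libraries where a Ch clone had 2. Levels and ratios were tested with edgeR 4.0.16 (quasi-likelihood, TMM and filterByExpr for levels, a library term for ratios, Benjamini-Hochberg adjustment over all genes tested, two-sided) in R 4.3.3. Alternatives were DESeq2 1.42.0, other size factors, no filter, covariates, other read minimums and leaving out each library; the fits were tested on simulated data. SE are |log2 fold change| over the root of F. Median fold changes of lists stand beside that of all genes. The receptor genes and gene lists were chosen with earlier results of these data known. List genes named by rule are the 4 with the smallest adjusted p past 0.05 and the most abundant per length; other list genes, such as those at 3 reads or fewer, were named after their values had been seen; the genes most like Grik2 were taken by Pearson's r, 4 by level and 5 by ratio; 1 more by level is not reported here. Python 3.11.15 was used with pandas 2.3.3, scipy 1.17.1 and matplotlib 3.10.9.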

Additional observations from a re-analysis of the deposited data

Results flagged for a closer look

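In 4 of 28 groups of clones or libraries examined, 1 value lay farther from the others than Dixon's 95% limit allows. That limit marks about 1 in 20 groups of independent, normally distributed values. Levels were taken without a log, and the groups share clones, so 4 of 28 cannot be set against that rate. All 4 concern the Ch clones. Gria4 was at 40.7 CPM in Ch3, against at most 1.17 CPM in Ch5, Ch7 and Ch8. Grik3 was at 20.5 CPM in Ch3, against at most 8.08 CPM in the other 3 clones. The Grik3 ratio was 18.4% in Ch7, against at most 4.76% in the other 3. Grik5 was at 49.6 CPM in Ch7, against at most 41.8 CPM in the other 3. These values add both libraries of a clone, and against the spread between libraries Grik5 did not pass (edgeR adjusted p = 0.0838). Causes were not tested.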

How the results depend on the processing

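The count of receptor genes past the threshold between astrocytes and poly(A) NPC was 1 with other size factors, no filter, sex as a covariate, all libraries in 1 fit or DESeq2, and 0 to 1 when a library was left out. Between male and female clones it was 0 with edgeR, 1 with no filter, 2 with DESeq2 and 0 to 1 with a library left out. Among Ch clones it was 5 to 8 for levels and 1 to 3 for ratios (1 to 2 with a library left out). For allele bias it was 0 to 2 in poly(A) clones and 1 to 3 in Ch clones (1 to 2 with a clone left out), and for the ratio between cell types 0 in all 10 alternatives. Where a value changed, the cause was not tested.

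Fold changes between cell types that turned sign were Gria2 (0.29 with sex as a covariate; -1.86 to 0.0239 with a library left out), Grik1 (-0.15 to 0.91) and Grik2 (-0.0273 and -0.14 without G4 and F5; up to 2.19). Between sexes they were Gria1 (-0.17 to 1.48), Grik2 (-0.23 with no cell type term; -1.20 to 2.11), Grik3 (-0.93 to 0.71) and Grik5 (-0.0365 with no cell type term; -0.0509 to 0.16), the ranges with a library left out. Each had an adjusted p over 0.7 where its sign turned.

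The SD of the Grik2 ratio was 35.9 to 41.5 with 1 clone left out. Monoallelic values numbered 21 to 30 under other limits and read minimums. With the replicate number as a block, 7 genes passed for levels and 2 for ratios among Ch clones, as without it. Libraries of equal number did not deviate together in every pair of clones (correlations -0.349 to 0.413), so the numbers were not taken as pairs.

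Group sizes are small, and the clones of the cell types differ. Ratios in Ch clones rest on 4193927 to 5971768 allele-specific reads per library, so genes under about 1 CPM had none. Preparation and clone set cannot be told apart for the Ch libraries.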
